A study of Homo sapiens with 6 samples.

Results

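A set of 9 genes for myeloid surface receptors and integrins was followed in MOLM-13 cells, an established human acute myeloid leukaemia cell line that carries an MLL-AF9 fusion and a FLT3 internal tandem duplication. The members were the rows whose Entrez identifier belongs to ITGAL, ITGB2, ITGA4, CD44, CD33, PTPRC, CSF3R, CSF2RB or FCER1G, which made 9 of the 25420 genes in the deposited tables, and all 9 had reads in all 6 libraries. Cells received 10 µM C646, an inhibitor of the acetyltransferase domain of CBP and p300, or its solvent DMSO for 2 h, and all cultures were given 100 µM 4-thiouridine (4sU) in the last 60 min. There were 3 DMSO and 3 C646 libraries of one cell line, made by SLAM-seq, in which alkylated 4sU is read as C where the genome has T, so that reads with a T>C conversion mark RNA made while 4sU was present, beside background mismatches that were not measured here. The comparison asks how inhibition of CBP/p300 acted on newly made receptor RNA and on the total receptor mRNA.

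Integrins are pairs of an alpha and a beta chain that reach the cell surface together. ITGAL with ITGB2 forms LFA-1, which binds ICAM proteins on other cells, and ITGA4 pairs with ITGB1 or ITGB7 to bind VCAM-1 and fibronectin. CD44 binds hyaluronan, CD33 is an inhibitory sialic acid-binding receptor used as a drug target in acute myeloid leukaemia, and PTPRC encodes CD45, a receptor tyrosine phosphatase of leukocytes. CSF3R is the receptor of G-CSF, CSF2RB is the shared beta chain of the receptors for GM-CSF, IL-3 and IL-5, and FCER1G is the ITAM-bearing gamma chain of Fc receptors.

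The libraries held 7252597 to 10225448 reads in annotated 3′ untranslated regions, of which 8.74% to 8.86% carried a T>C conversion in DMSO and 6.34% to 6.71% in C646. Levels are given in CPM, counts scaled to the library total of all reads after TMM normalisation, for T>C reads too. Since the libraries were primed at the poly(A) tail, a transcript gives reads at its 3′ end and counts were not divided by length. Of 14 myeloid markers, 13 averaged at least 10 reads per library, and their summed level was 4189 to 4361 CPM in DMSO and 4294 to 4416 in C646. Most of this sum was LYZ (mean 2802 CPM in DMSO and 3029 in C646), and other markers, chosen after their values were seen, differed more: SPI1 (199 against 94.9), CD4 (302 against 226) and MNDA (8.14 against 19.8). CD3E, CD3G, CD2 and VWF were at 0, and the B cell and erythroid lists summed to at most 3.799 and 0.277 CPM. The T and NK cell list (78.6 to 102.6 in DMSO, 33.5 to 72.7 in C646) rested on NKG7 and the stromal list (148.0 to 162.8 against 98.3 to 133.4) on PECAM1. Their part in the results was not tested. The libraries are bulk samples of a single cell line, where fewer cells holding a transcript and less of it per cell cannot be told apart. Because the labels do not say that the replicates came from separate cultures, p-values measure the spread between these samples. C646 replicate 3 had the highest or the lowest total level of its group for 9 of the 9 members, so values without it are given where they matter.

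In the T>C reads, 5 of the 8 members that could be tested fell in C646, namely ITGAL, CD44, CD33, ITGA4 and ITGB2, and 0 rose, with edgeR or DESeq2 when libraries were scaled on all reads. Scaled on the T>C reads themselves, 2 of these 5 stayed called with either tool (ITGAL and CD33), and edgeR called 596 genes lower and 717 higher in place of 2548 and 229. A gene was called where edgeR's quasi-likelihood test gave a Benjamini-Hochberg adjusted p of at most 0.01 over all genes tested and a log2 fold change of at least 1 in size. Of all 7722 genes tested, 33.0% were called lower and 2.97% higher by the same rule. The median log2 fold change was −0.83 over all genes against −1.69 over the members tested. Since the members were chosen with earlier results of these data known, this contrast is a description. The other 3, CSF3R, PTPRC and CSF2RB, had log2 fold changes of 0.05 to 0.17, and FCER1G had too few T>C reads for the filter. In total mRNA 0 of the 9 members were called by edgeR or by DESeq2, where 1.88% of 10851 genes were called lower and 5.89% higher. PTPRC was called higher when libraries were scaled by all filtered reads instead. With the TMM scaling 3 (ITGAL and CD33 lower, PTPRC higher) had an unadjusted p under 0.05, as did 20.5% of genes lower and 22.1% higher. In reads without a conversion, which hold RNA made before the labelling and new RNA with no conversion read, 0 of 9 were called as well, against 0.888% of genes lower and 8.0% higher. Here 5 had an unadjusted p under 0.05, ITGAL and CD33 lower and PTPRC, ITGB2 and ITGA4 higher, as did 15.0% of genes lower and 27.6% higher.

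**Figure D1:**
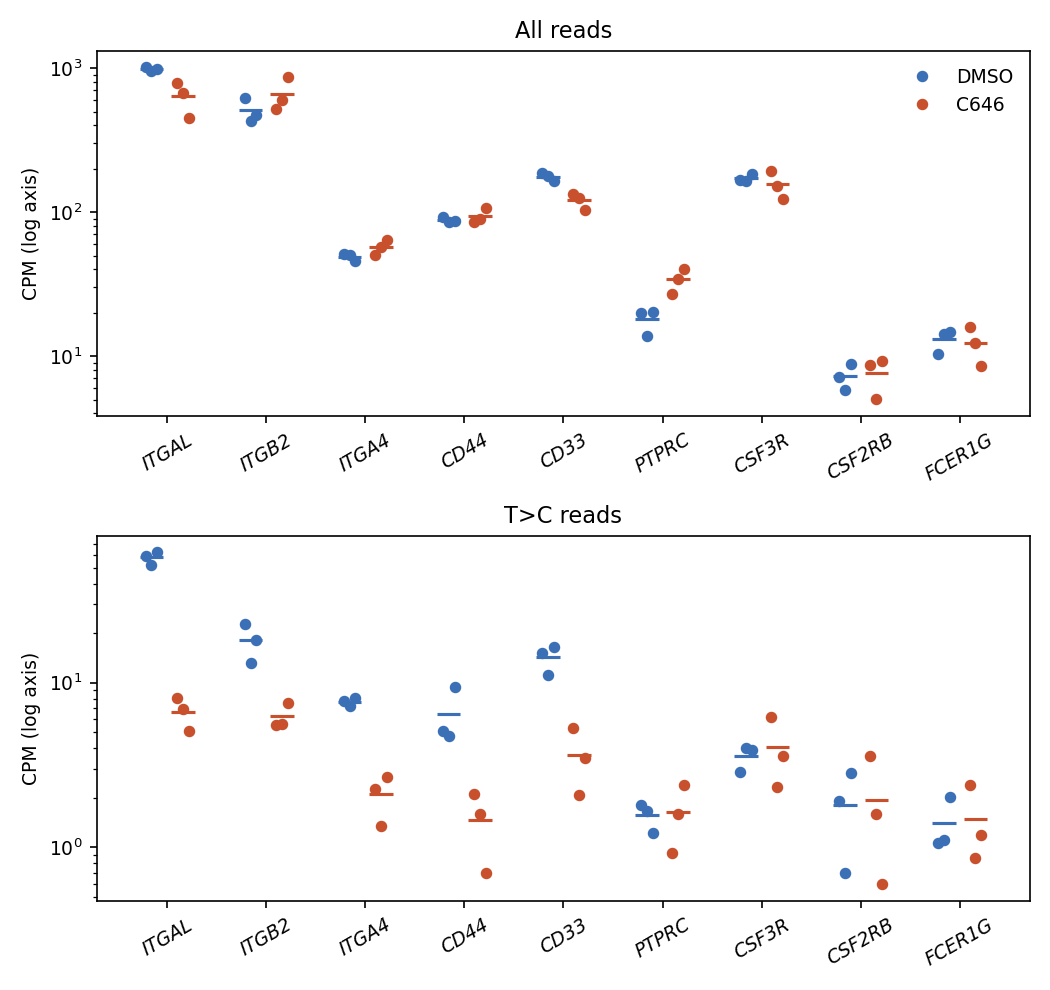
CPM of the 9 members in each library (points; bars are means, n = 3 per group; log axes), for all reads above and for T>C reads below. The 3 C646 libraries lie below the 3 DMSO libraries in T>C reads for ITGAL, ITGB2, ITGA4, CD44 and CD33, while the total levels differ less. This separation in T>C reads was seen for 55.8% of the genes tested, and in all reads 23.1% lay below and 24.5% above.

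ITGAL had the largest fall of the members. Its total level was 1014, 957 and 983 CPM in DMSO and 793, 677 and 452 in C646, and its T>C level was 59.0, 52.1 and 62.1 against 8.07, 6.86 and 5.06. The groups overlapped in neither measure, and the lowest total level was that of C646 replicate 3. T>C reads fell 8.73-fold (log2 fold change −3.13, SE 0.20, adjusted p = 2.2e-13 by edgeR's quasi-likelihood test), and only 1.99% of the genes tested had a lower value. For total reads the log2 fold change was −0.62 (SE 0.17, adjusted p = 0.014), outside both cutoffs, and −0.42 without C646 replicate 3. Reads without a conversion were 927 ± 25.5 (SD, n = 3) CPM in DMSO and 634 ± 172 in C646, a log2 fold change of −0.55 (SE 0.17, adjusted p = 0.026).

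ITGB2, the beta chain that pairs with ITGAL, fell in T>C reads and was not called in total reads. T>C reads were 22.9, 13.2 and 18.2 CPM in DMSO and 5.55, 5.64 and 7.54 in C646, so that the groups were apart. The fall was 2.88-fold (log2 fold change −1.53, SE 0.25, adjusted p = 7.3e-06, edgeR). All reads were 626, 426 and 476 CPM in DMSO and 519, 600 and 863 in C646, with overlapping groups and a log2 fold change of 0.38 (SE 0.19, adjusted p = 0.14, edgeR). The highest of the 6 values was C646 replicate 3, the library with the lowest ITGAL level, and without it the log2 fold change of total reads was 0.14.

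The ratio of the reads of the LFA-1 chains is given as a description, since it was chosen after the values of the members were seen. For 1 read of ITGB2 there were 1.62, 2.24 and 2.07 reads of ITGAL in the DMSO libraries and 1.53, 1.13 and 0.524 in the C646 libraries. In T>C reads the ratios were 2.58, 3.96 and 3.41 against 1.45, 1.22 and 0.671. Neither set overlapped between the groups, although the nearest values in all reads, 1.62 and 1.53, were close. The ratio needs no scaling between libraries.

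ITGA4, the alpha chain of VLA-4, had one of the highest T>C shares among the members in DMSO and fell in C646. T>C reads were 7.69, 7.21 and 8.08 CPM in DMSO and 2.25, 1.35 and 2.68 in C646, with a wide gap between the groups. The fall was 3.61-fold (log2 fold change −1.85, SE 0.34, adjusted p = 5.1e-05, edgeR). Its total level was 51.0, 50.05 and 46.0 against 50.8, 57.7 and 64.2, with overlapping groups and a log2 fold change of 0.23 (SE 0.15, adjusted p = 0.24, edgeR).

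CD44 fell in T>C reads and was not called in total mRNA. T>C reads were 5.06, 4.71 and 9.43 CPM in DMSO and 2.12, 1.59 and 0.694 in C646. These rested on 34 to 70 reads per DMSO library and 7 to 16 per C646 library, and the groups did not overlap although DMSO replicate 3 stood well above the other two. C646 replicate 3 lay under the low-count filter, which CD44 passed through DMSO, and CD44 was also called without a filter. The fall was 4.43-fold (log2 fold change −2.15, SE 0.43, adjusted p = 0.00012, edgeR), and without single libraries it ranged from −2.49 to −1.75. All reads were 92.0, 85.3 and 87.1 against 85.2, 89.2 and 106, with a log2 fold change of 0.09 (SE 0.14, adjusted p = 0.66, edgeR).

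CD33 fell in T>C reads, and its total level was lower in each C646 library than in any DMSO library. T>C reads were 15.1, 11.1 and 16.6 CPM in DMSO and 5.29, 2.08 and 3.47 in C646, and the fall was 3.96-fold (log2 fold change −1.99, SE 0.29, adjusted p = 2.0e-06, edgeR). Its total level was 186, 178 and 165 against 133, 126 and 103. The log2 fold change of all reads was −0.55 (SE 0.14) with an adjusted p of 0.0082 by edgeR's quasi-likelihood test, past the p cutoff, as for 6.28% of the genes tested in that direction, but not the fold cutoff. Leaving out 1 library at a time moved this adjusted p to between 0.0077 and 0.035, and it stayed under 0.01 only without C646 replicate 1.

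PTPRC, encoding CD45, differed from the 5 members above, with more total reads in each C646 library than in any DMSO library and no call in T>C reads. All reads were 20.03, 13.9 and 20.2 CPM in DMSO and 27.2, 34.6 and 40.5 in C646, and the groups did not overlap. The log2 fold change was 0.92 (SE 0.20) with an adjusted p of 0.0040 by edgeR's quasi-likelihood test, past the p cutoff as for 9.81% of genes in that direction, but just inside the fold cutoff. It was 1.06 without C646 replicate 1 and 1.01 without DMSO replicate 3, where PTPRC passed both cutoffs. Without C646 replicate 3 it was 0.77, and without DMSO replicate 2 it was 0.76. PTPRC also passed both cutoffs when libraries were scaled by all filtered reads. T>C reads were 1.79, 1.66 and 1.21 CPM against 0.926, 1.59 and 2.38, with overlapping groups and a log2 fold change of 0.08 (SE 0.53, adjusted p = 0.90, edgeR). These were 9 to 17 reads per DMSO library and 7 to 24 per C646 library, and a missing call at this SE does not show that the T>C level was the same in both groups. Reads without a conversion showed the same difference as all reads, at 16.5 ± 3.72 (SD, n = 3) CPM in DMSO and 32.5 ± 5.90 in C646 (log2 fold change 0.98, SE 0.21, adjusted p = 0.0032, edgeR).

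The cytokine receptors were not called in any measure. CSF3R had 2.85, 4.02 and 3.90 T>C CPM in DMSO and 6.22, 2.33 and 3.57 in C646, and the C646 values lay on both sides of the DMSO values. Its log2 fold change was 0.17 (SE 0.39, adjusted p = 0.73, edgeR) and turned to −0.25 without C646 replicate 1. All CSF3R reads were 168, 163 and 186 CPM against 192, 152 and 124 (log2 fold change −0.15, SE 0.16, adjusted p = 0.50, edgeR). This change turned its sign when libraries were scaled by all filtered reads. CSF2RB was a low gene, with 41 to 94 reads in a library. Its T>C reads were 1.90, 0.693 and 2.83 CPM in DMSO and 3.57, 1.59 and 0.595 in C646, a spread within each group that was far wider than the difference between them (log2 fold change 0.05, SE 0.59, adjusted p = 0.95, edgeR). Without C646 replicate 1 this value was −0.75, so its direction rested on single libraries.

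FCER1G had 86 to 121 reads and 7 to 18 T>C reads in a library. T>C reads were 1.05, 1.11 and 2.02 CPM in DMSO and 2.38, 0.858 and 1.19 in C646, and they were not tested across genes. All reads were 10.4, 14.3 and 14.8 CPM against 16.002, 12.3 and 8.53, with overlapping groups. The log2 fold change was −0.11 (SE 0.25, adjusted p = 0.78, edgeR) and ranged from −0.34 to 0.11 when 1 library was left out.

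**Figure D2:**
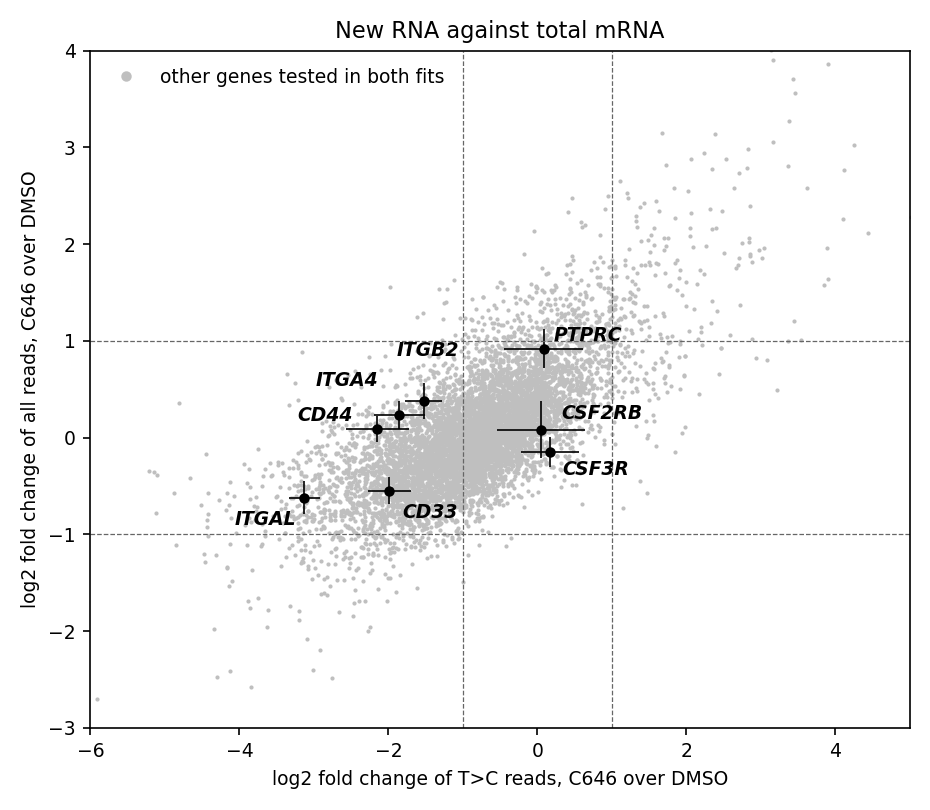
Log2 fold change (C646 over DMSO) of T>C reads on the horizontal axis and of all reads on the vertical axis for 7722 genes (grey) and 8 members (black, with standard errors from the fits); 33 genes lie outside the axes and dashed lines mark a log2 fold change of 1 in either direction. ITGAL, CD44, CD33, ITGA4 and ITGB2 lie left of −1 in T>C reads, and all 8 members lie between −1 and 1 in all reads.

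The share of a gene's reads with a T>C conversion is taken within a library and needs no scaling. In DMSO the mean share was lowest for CSF3R (2.08% ± 0.39, SD, n = 3), then ITGB2 (3.52% ± 0.38) and ITGAL (5.86% ± 0.43). CD44 (7.28% ± 3.06), CD33 (8.12% ± 1.90), PTPRC (8.98% ± 3.00) and FCER1G (10.5% ± 2.96) followed. ITGA4 (15.7% ± 1.65) and CSF2RB (23.4% ± 10.3) had the highest shares. CSF3R and ITGB2, ITGB2 and ITGAL, and FCER1G and ITGA4 did not overlap over their 3 libraries, whereas the other neighbours in this order did. The median of the 7722 genes was 13.3%, and 7 of the 9 members lay below it. These genes had passed a filter on T>C reads, and over the 2997 genes that averaged at least 500 reads the median was 8.41%, with 5 members below it (CSF3R, ITGB2, ITGAL, CD44 and CD33). CSF3R stood at the low end of the genes tested, with 0.648% of them lower, and 1.94% of the 2997 genes with at least 500 reads were lower. As none of the 6 libraries was unlabelled, the part of this share that background mismatches make was not tested.

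In C646 the share was lower in every library than in any DMSO library for 6 members. ITGAL went from 5.82%, 5.45% and 6.31% to 1.02%, 1.01% and 1.12%, and ITGB2 from 3.65%, 3.09% and 3.82% to 1.07%, 0.940% and 0.873%. ITGA4 went from 15.1%, 14.4% and 17.5% to 4.43%, 2.34% and 4.17%. The other 3 were CD44 (mean 7.28% to 1.64%), CD33 (8.12% to 2.99%) and PTPRC (8.98% to 4.63%). For PTPRC the nearest values, 6.0% in DMSO replicate 3 and 5.88% in C646 replicate 3, were close. Across the 7722 genes tested, 64.5% were separated in this way. CSF3R (1.69%, 2.46% and 2.10% in DMSO, 3.23%, 1.54% and 2.89% in C646) and FCER1G (10.1%, 7.77% and 13.6% against 14.9%, 7.0% and 13.95%) overlapped between the groups. CSF2RB had 26.5%, 11.9% and 31.8% in DMSO and 40.9%, 31.7% and 6.38% in C646, so that C646 replicate 3 stood apart from the other two. The two-sided exact permutation test gave p = 0.1 for each of the 6 separated members, the smallest value 3 libraries against 3 allow, over 9 members tested.

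A fit of T>C reads against the other reads of the same gene, with a term for each library, tested this share across all genes. The odds of a T>C read fell for the same 5 members of 8, where 38.3% of genes were called lower and 0.79% higher and the median log2 change was −1.004. The log2 changes were −2.55 for ITGAL (SE 0.14, adjusted p = 2.1e-12), −2.31 for CD44 (SE 0.39, adjusted p = 4.0e-05) and −2.29 for ITGA4 (SE 0.33, adjusted p = 5.0e-06) by edgeR's quasi-likelihood test. ITGB2 had −1.94 (SE 0.17, adjusted p = 2.3e-09) and CD33 −1.51 (SE 0.28, adjusted p = 9.3e-05, edgeR). PTPRC had −0.94 (SE 0.46, adjusted p = 0.077, edgeR), close to the median of all genes and not called. CSF3R had 0.32 (SE 0.29, adjusted p = 0.34, edgeR), a value above that of 96.1% of genes, which ranged from 0.10 (without C646 replicate 1) to 0.59 (without C646 replicate 2) when 1 library was left out. CSF2RB had −0.02 (SE 0.74, adjusted p = 0.98, edgeR).

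Conversions per covered T base take the base composition of the 3′ end into account, since a read of ITGAL covered 20.4 T bases on average in DMSO and a read of PTPRC 37.9. In DMSO there were 1.13 ± 0.29 (SD, n = 3) conversions per 1000 covered T for CSF3R, 1.98 ± 0.30 for ITGB2 and 4.58 ± 0.37 for ITGAL, of which CSF3R and ITGB2 were the lowest members, as by share, and apart from each other and from ITGAL. ITGAL overlapped PTPRC, which had nearly the same mean. ITGA4 had 11.7 ± 1.18 and CSF2RB 21.7 ± 5.96, again the highest. In C646 the rate was lower in every library for ITGAL (0.752 ± 0.14), ITGB2 (0.293 ± 0.04), ITGA4 (1.72 ± 0.31), CD44 (0.997 ± 0.92, from 6.11 ± 4.195) and CD33 (2.07 ± 1.52, from 5.01 ± 0.66), each with p = 0.1 in the two-sided exact permutation test, and 65.5% of all genes tested were separated in the same way. Single libraries moved these means for CD44 and CD33. The DMSO mean of CD44 was 3.69 without DMSO replicate 3, and its C646 mean was 0.482 without C646 replicate 1. The C646 mean of CD33 was 1.23 without C646 replicate 3. PTPRC, which was separated by share, overlapped by this measure at 4.59 ± 1.89 in DMSO and 3.36 ± 0.95 in C646.

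The deposited conversions were also set against the T>C reads of the same gene. ITGB2 had 2.18, 1.81 and 1.97 conversions per T>C read in DMSO and 1.12, 1.07 and 1.12 in C646. CSF3R had 1.56, 1.86 and 2.00 against 1.40, 1.00 and 1.08. The groups did not overlap for these 2 of the 9 members, each with p = 0.1 in the two-sided exact permutation test, and 24.3% of all genes tested were lower in this way. The other 7 overlapped, and the means of CD33 (2.12 in DMSO and 2.28 in C646) and PTPRC (1.90 and 3.06) were higher in C646. Without C646 replicate 3 the C646 mean of CD33 was 1.52, below its DMSO mean. Over all genes tested the median was 2.10 in DMSO and 1.81 in C646. FCER1G had fewer conversions than T>C reads in 2 of the C646 libraries (16 in 18 reads and 3 in 7), so the deposited conversion column does not hold every conversion that makes a T>C read, and these ratios are not a full count of conversions in a read.

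The 3′ regions behind these counts were single for nearly all reads. In GRCh38 coordinates, ITGAL was read at chr16:30521666-30523185 on the plus strand, ITGB2 at chr21:44885954-44886367 on the minus strand and ITGA4 at chr2:181535528-181538928 on the plus strand. CD44 was read at chr11:35229288-35232402, CD33 at chr19:51239689-51240019, PTPRC at chr1:198756182-198757476 and CSF2RB at chr22:36938503-36940437, all on the plus strand. CSF3R was read at chr1:36466043-36466356 on the minus strand and FCER1G at chr1:161218944-161219248 on the plus strand. All 9 overlap annotated exons and untranslated regions of GENCODE release 44, and those of CD44 and CSF3R overlap coding sequence as well. Each held at least 99.5% of the reads of its gene. ITGA4 was the one member whose region overlapped that of another gene on the opposite strand.

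Promoters of CD33 (called lower in T>C reads) and CSF3R (not called) are shown with the letters of 2 motifs of myeloid transcription factors in capitals. These are RefSeq sequences on GRCh38.p14, from 250 bases before to 50 after the annotated start, 5′ to 3′ on the strand of the gene. CD33 lies at chr19:51224830-51225129, and CSF3R has an upstream start at chr1:36483265-36483564 and a downstream start at chr1:36482864-36483163, both on the minus strand. Capitals mark GAGGAA (PU.1, which contains the ETS core GGAA) and TGTGGT (RUNX), on either strand.
CD33: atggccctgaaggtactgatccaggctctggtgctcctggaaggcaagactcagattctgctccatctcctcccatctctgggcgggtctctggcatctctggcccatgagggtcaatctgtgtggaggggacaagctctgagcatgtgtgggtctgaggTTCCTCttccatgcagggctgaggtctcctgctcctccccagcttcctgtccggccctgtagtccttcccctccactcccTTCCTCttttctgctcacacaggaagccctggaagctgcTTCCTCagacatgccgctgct
CSF3R upstream start: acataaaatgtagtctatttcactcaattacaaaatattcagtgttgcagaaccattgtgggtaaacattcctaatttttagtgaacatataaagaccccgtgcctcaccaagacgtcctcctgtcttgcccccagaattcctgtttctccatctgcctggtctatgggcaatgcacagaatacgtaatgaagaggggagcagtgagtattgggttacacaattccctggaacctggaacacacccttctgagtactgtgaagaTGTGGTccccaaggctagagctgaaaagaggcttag
CSF3R downstream start: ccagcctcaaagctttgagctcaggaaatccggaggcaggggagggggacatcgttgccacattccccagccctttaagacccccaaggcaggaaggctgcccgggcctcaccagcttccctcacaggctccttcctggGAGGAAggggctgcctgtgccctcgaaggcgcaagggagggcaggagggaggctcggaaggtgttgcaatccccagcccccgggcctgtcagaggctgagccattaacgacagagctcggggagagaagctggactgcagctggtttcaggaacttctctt
The CD33 promoter holds the PU.1 letters 3 times, the downstream CSF3R promoter once and the upstream one not at all, while the upstream one holds the RUNX letters once. Of 35116 promoters of the same length, 27.9% hold GAGGAA and 13.1% hold TGTGGT. Also searched were the ETS core GGAA (in 95.5% of all promoters and in all of these), the C/EBP letters TTGCNNAA (10.5%), the AP-1 letters TGANTCA (7.71%) and TATAAA (11.5%). The upstream CSF3R promoter holds the C/EBP letters and TATAAA once each, and no other window of a member holds those or the AP-1 letters. Neither the PU.1 nor the RUNX motif is in the promoter windows of CD44, ITGA4 or PTPRC, and that of FCER1G holds the RUNX letters once. These matches are a description of the sequence, and binding was not measured. Promoters of ITGAL, ITGB2 and CSF2RB were not analysed here.

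In related genes, from 6 lists that share functions with the members, 34 of the 80 non-member genes tested fell in T>C reads and 1 rose, with a median log2 fold change of −0.97, beside 33.0% lower, 2.97% higher and a median of −0.83 over all genes tested. Of these 34, 13 had C646 levels that alone would not have passed the filter on low counts (1.27 CPM in each library), among them PTPN6 and THBD, so that they were tested through DMSO, where they were high, and the count is a description. The same held for 1101 of the 2548 genes called lower over all genes and, among the members, for CD44. The share called lower was near or below 33.0% for the integrin activators and adaptors, the Siglecs and the Fc receptors. The integrin subunits had 3 lower of 4 tested beside the members, and the 1 with enough reads to be named was ITGA5, the alpha chain of the fibronectin receptor (35.1 ± 4.43 T>C CPM in DMSO and 7.66 ± 1.85 in C646, SD, n = 3, log2 fold change −2.20). ITGA5 was also called lower in total reads (log2 fold change −1.02, adjusted p = 0.0034, edgeR). Of the integrin activators and adaptors, 5 of 17 were lower, among them TLN1, the talin that links integrin tails to actin (−1.71, adjusted p = 2.1e-06, edgeR).

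Of the cytokine and growth factor receptors other than the members, 10 of 20 fell, with a median of −1.42, while CSF3R and CSF2RB were near 0. IL10RB, a chain of the IL-10 receptor, had a log2 fold change of −1.74 (adjusted p = 6.1e-05), TNFRSF1B, a TNF receptor, −1.70 (adjusted p = 1.3e-06) and IL17RA, a chain of the IL-17 receptor, −1.60 (adjusted p = 4.7e-09, edgeR).

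Of the Siglecs and inhibitory receptors, 2 of 6 fell beside CD33. PTPN6, which encodes the phosphatase SHP-1 that ITIM receptors such as CD33 recruit, went from 40.5 ± 3.26 to 1.86 ± 0.75 T>C CPM (SD, n = 3, log2 fold change −4.48, adjusted p = 1.9e-14, edgeR), and it was called lower in total reads (−1.21). SIRPA, the inhibitory receptor for CD47, had −1.49 (adjusted p = 1.3e-05, edgeR). Among Fc receptors and ITAM adaptors 2 of 8 fell, including TYROBP, an adaptor related to FCER1G (−1.20, adjusted p = 1.1e-05, edgeR). The 1 listed gene that rose was TREM1 (0.401 ± 0.294 to 2.50 ± 0.330 T>C CPM, log2 fold change 2.67, adjusted p = 0.00087, edgeR), a receptor that signals through TYROBP, named after its values were seen. It averaged 12.3 T>C reads and passed the filter through the C646 libraries, where it was high, so its difference is a description too.

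Of the other leukocyte surface antigens, 12 of 25 fell beside CD44 and PTPRC. SELPLG, the ligand of P-selectin, had a log2 fold change of −2.63 (adjusted p = 4.6e-10, edgeR). TFRC, the transferrin receptor, had −1.97 (adjusted p = 5.8e-09) and CD74, the invariant chain, −1.89 (adjusted p = 2.2e-07, edgeR). Total reads of SELPLG had −0.97 (adjusted p = 0.00095, edgeR), past the p cutoff but not the fold cutoff. Those of TFRC (−0.07) and CD74 (−0.56) passed neither. In total reads 3 of 115 listed genes tested were lower (ITGA5, PTPN6 and THBD) and 4 higher (PTPRE, TREM1, PILRA and FERMT3), close to the 1.88% lower and 5.89% higher over all genes. PILRA passed the filter through the C646 libraries, where it was high. Of the 7 named, all but ITGA5 and PTPN6 were named after their values were seen.

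For each member tested, the gene with the most similar values was sought among 2841 genes that averaged 50 T>C reads or more, by the Euclidean distance over 3 values (the log2 change in T>C reads, that in total reads, and the log2 share in DMSO). These were ELAC2 for ITGAL (distance 0.226), APOC2 for ITGB2 (0.469), UBE2C for ITGA4 (0.226) and PRMT5 for CD44 (0.138). They were TRABD for CD33 (0.0748), CCZ1 for PTPRC (0.166), TPT1 for CSF3R (0.334) and ZNF587 for CSF2RB (0.0491). TPT1, the nearest to CSF3R, had a share of 2.52% in DMSO and a log2 fold change of T>C reads of 0.25. ITGB2 had the most distant neighbour, and CCZ1 has a near-identical copy, so that its counts are uncertain.

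The size of the T>C falls depended on how libraries were scaled, as 82.9% of all genes tested had a T>C change below 0. Set against the median of all genes, ITGAL stood at −2.30, CD44 at −1.32, CD33 at −1.16, ITGA4 at −1.02 and ITGB2 at −0.70 on the log2 scale. PTPRC, CSF3R and CSF2RB stood at 0.91, 1.00 and 0.88. When libraries were scaled on the T>C reads themselves, which set the median of all genes to 0.01, ITGAL (−2.29) and CD33 (−1.15) still passed both cutoffs by edgeR's quasi-likelihood test, and CD44 (−1.31, adjusted p = 0.021), ITGA4 (−1.03, adjusted p = 0.022) and ITGB2 (−0.70, adjusted p = 0.027) did not.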

How the data were processed

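SLAM-seq libraries of 3 DMSO and 3 C646 samples of MOLM-13 cells were analysed from 1 deposited table per library. The authors aligned the reads to GRCh38 and counted them with SLAM-Dunk over 58136 annotated 3′ untranslated regions, and deposited raw counts of all reads and of T>C reads per region. The counts of T>C reads were taken to hold reads with 1 or more conversions, since many regions with 1 T>C read list 1 conversion, although the conversion column is not complete, whereas the study's own test used reads with more. Also deposited were CPM values, which the authors scaled to all filtered reads, conversion rates as fractions and T coverage as a signal over each region. CPM and fractions were not used in the tests, and T coverage served for conversions per covered T. The listed T content is 0 throughout the table of C646 replicate 3 and was not used.

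Counts were summed per Entrez gene (25310 of 25420 matched a RefSeq symbol). edgeR 4.0.16 (R 4.3.3) fitted glmQLFit and glmQLFTest after filterByExpr with all 6 libraries and no covariate. Library sizes were TMM-scaled totals of all reads, also for T>C reads and for reads without T>C. The odds fit set T>C reads against the other reads of a gene with a library factor. Calls needed an adjusted p of at most 0.01 and a log2 fold change of 1 or more in size. Shares and rates were compared by exact permutation over libraries. DESeq2 1.42.0, other scalings, filters, a single region per gene, a replicate block and leaving out libraries were alternatives, and the scripts were tested on simulated data. The chi-square per degree of freedom between replicates was 7.87 to 27.7, so none was a repeat of another.

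The members and gene lists were chosen with earlier results of these data known. Members were always named, and from each list up to 3 genes were named with the largest change among those called, with a mean of 50 T>C reads or more and no overlap of the groups. Motifs were counted on both strands.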

Additional observations from a re-analysis of the deposited data

How the results depend on the processing

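The 5 falls in T>C reads kept their direction in each alternative that tested them and passed both cutoffs when any 1 library was left out, with DESeq2 or DESeq2 size factors from all reads, without a filter, with a single region per gene and scaled by all filtered reads (an alternative added after the data were seen). Scaling on the T>C reads left 2 members called lower by edgeR (ITGAL and CD33), with 596 genes lower and 717 higher against 2548 and 229, and DESeq2 scaled in the same way left 2 members, with 463 and 642 genes. A minimum of 50 reads left 3 members tested and called lower, with 1038 genes lower and 125 higher, and for the odds 3 members and 1189 genes, since fewer genes were tested. Scaled by all filtered reads, 1 member (PTPRC) was called higher, with 90 genes lower and 1014 higher in all reads and 28 and 1298 in reads without T>C. CSF3R then turned to 0.051 and 0.043 and FCER1G to 0.093 and 0.069 on the log2 scale in those 2 measures.

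Leaving out 1 library at a time, members called higher ranged from 0 to 1 in all reads and in reads without T>C, and the 1 was PTPRC. Genes called lower ranged from 120 (without DMSO replicate 2) to 321 (without C646 replicate 1) in all reads and from 36 (without C646 replicate 3) to 192 (without C646 replicate 1) in reads without T>C. Values near 0 changed sign: in T>C reads PTPRC ranged from −0.30 to 0.36, CSF3R from −0.25 to 0.44 and CSF2RB from −0.75 to 0.50, and in the odds CSF2RB from −0.77 to 0.88. In all reads CD44 ranged from −0.016 to 0.16, CSF2RB from −0.089 to 0.31 and FCER1G from −0.34 to 0.11. In reads without T>C CSF2RB ranged from −0.36 to 0.35 and FCER1G from −0.33 to 0.092. The cause was not tested.

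With the replicate number as a replicate block, 5 members were called lower in T>C reads and 5 in the odds, and no call of a member changed. Same-numbered libraries correlated at 0.03 to 0.07 in T>C reads and −0.001 to 0.23 in all reads, so the numbers were not taken as pairs. In T>C reads 6 of the 6 libraries correlated best with their own number, a hint from the data only.

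Depth limits PTPRC, CSF2RB and FCER1G, with 5 to 27 T>C reads in a library. Of the members called lower, CD44 (7 to 16), ITGA4 (11 to 27) and CD33 (17 to 40) also had few T>C reads per C646 library.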

Other observations

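Within the C646 group, single libraries stood apart in the conversions per T>C read of 2 members. CD33 had 1.40, 1.65 and 3.8 conversions per T>C read in C646, with 133 conversions in 35 reads in replicate 3, against 2.26, 2.23 and 1.86 in DMSO. PTPRC had 4.71, 2.00 and 2.46 in C646, with 33 conversions in 7 reads in replicate 1, against 2.00, 1.92 and 1.78 in DMSO. Groups of 3 were not tested for outlying samples.

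The lower total of ITGAL was mostly outside the T>C reads. All reads were lower by 344 CPM on average and T>C reads by 51.1, and reads without a conversion by 293. Those without a conversion were at 785, 670 and 447 CPM in C646, lowest in replicate 3. For ITGB2, the partner chain, T>C reads were lower by 11.8 CPM and reads without a conversion higher by 163, with overlapping groups. Without C646 replicate 3 the latter difference was 62.6 CPM.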
